A study of Mus musculus with 4 samples.

Results

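Genes of calcium handling and muscle excitability were followed in C2C12 cells, a mouse myoblast line, 24 h after transfection with DNA for lamin A. A set of 37 genes was listed by name, out of 55416 genes in the files, to cover the channels, pumps, store proteins, sensors and enzymes that move or read calcium in muscle. Of these, 27 reached a mean of 0.5 TPM (transcripts per 1000000, a level per transcript length) and were compared between groups; they are called measured here. The other 10 were Ryr1, Ryr2, Ryr3, Pln, Sln, Casq1, Cacna1c, Cacna1s, Scn4a and Kcna5, and their levels are described without a test. One group received wild-type lamin A and the other K97E lamin A, which the labels name as a mutant of dilated cardiomyopathy, and each group had 2 libraries, replicates 1 and 2. Both groups received 3 µg of DNA with a lipid reagent, no untransfected cells were analysed here, and the labels give neither the promoter of the transfected DNA nor the share of cells that took it up. The titles of the K97E libraries spell the line C1C12, and their cell line label, followed here, says C2C12. The labels call the libraries biological replicates without saying whether they came from separate cultures, so p-values measure only how far these libraries scatter, and that scatter may be technical.

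A resting cell keeps its free cytosolic calcium low by pumping it into the endoplasmic or sarcoplasmic reticulum through SERCA pumps and out of the cell through plasma membrane pumps and an exchanger. In a muscle fibre the voltage sensor of the T-tubule opens the ryanodine receptor of the sarcoplasmic reticulum, and the calcium stored there on calsequestrin starts contraction. Dividing myoblasts have no T-tubules or sarcomeres, and in such cells release through inositol trisphosphate (IP3) receptors and refilling through STIM and ORAI proteins are the usual routes.

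The libraries differed little in depth, with 89600000 to 115600000 estimated reads on transcripts. The markers of the labelled cell type were present: 7 of 8 myoblast markers were measured, and their summed level ran from 4335 to 4891 TPM over the 4 libraries. Most of that sum was 1 gene, Vim, at 3684 to 4174 TPM, so its size is no measure of myoblast identity beside the other lists. Myf5, a myogenic determination factor, stood at 45.01 and 47.8 TPM with wild-type lamin A and at 41.5 and 46.3 TPM with K97E, whereas Pax7, a satellite cell factor, was at or near 0. Of 16 markers of differentiated fibres only Mymk, Actn3 and Mylpf were measured. The 16 summed to 12.1, 28.5, 14 and 13.9 TPM in wild-type replicates 1 and 2 and K97E replicates 1 and 2. Actn3 alone held 8.93, 20.4, 9.72 and 10.9 TPM of these sums. The adult and perinatal myosins Myh1, Myh2, Myh4 and Myh8 and the alpha-actinin Actn2 were listed at 0 in every library. Of other cell types, 1 of 5 leukocyte markers and 2 of 7 cardiac muscle markers were measured, with Adgre1 and Cd3e, and Myl7 and Mybpc3, at 0 in all. Markers of smooth muscle summed to 447 to 743 TPM and those of fibroblasts to 256 to 279 TPM, with 3 of 5 measured in each list. Most of the smooth muscle sum was Acta2, at 360 to 632 TPM, with Myh11 and Cnn1 near 0. Most of the fibroblast sum was Col1a1, at 214 to 245 TPM, with Lum and Thy1 at or near 0. These sums, too, are no measure of cell identity. Of endothelial markers 1 of 4 was measured, and of neural markers 1 of 4.

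None of the 27 measured genes passed the test between the groups. Limma called 1 of 16304 tested genes at an adjusted p under 0.05, which is 0.00613% and was the transporter-like gene Mfsd4a, and called 0 of the 27. At an unadjusted p under 0.05 limma also gave 0 of the 27, beside 3.68% of all tested genes, and the smallest adjusted p among them was 0.965. The median log2 fold change (K97E minus wild type, from scaled values as log2(TPM + 0.5)) was -0.015 over the 27 genes and -0.0017 over all tested genes. Single genes ran from -0.24 to 0.20, with 12 positive and 15 negative. In scaled TPM the groups did not overlap for 6 of the 27, 4 higher and 2 lower with K97E, beside 33.1% of all tested genes, 16.3% higher and 16.8% lower. In TPM as deposited they did not overlap for 5 of the 27, 4 higher and 1 lower, beside 35.6% of all tested genes, 25.9% higher and 9.72% lower. On that scale the median over all tested genes moved to 0.05 and that of the 27 genes to 0.04, with 16 positive. The levels themselves spanned more than the differences did, so the genes are described by role, with the level in each library.

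**Figure D1:**
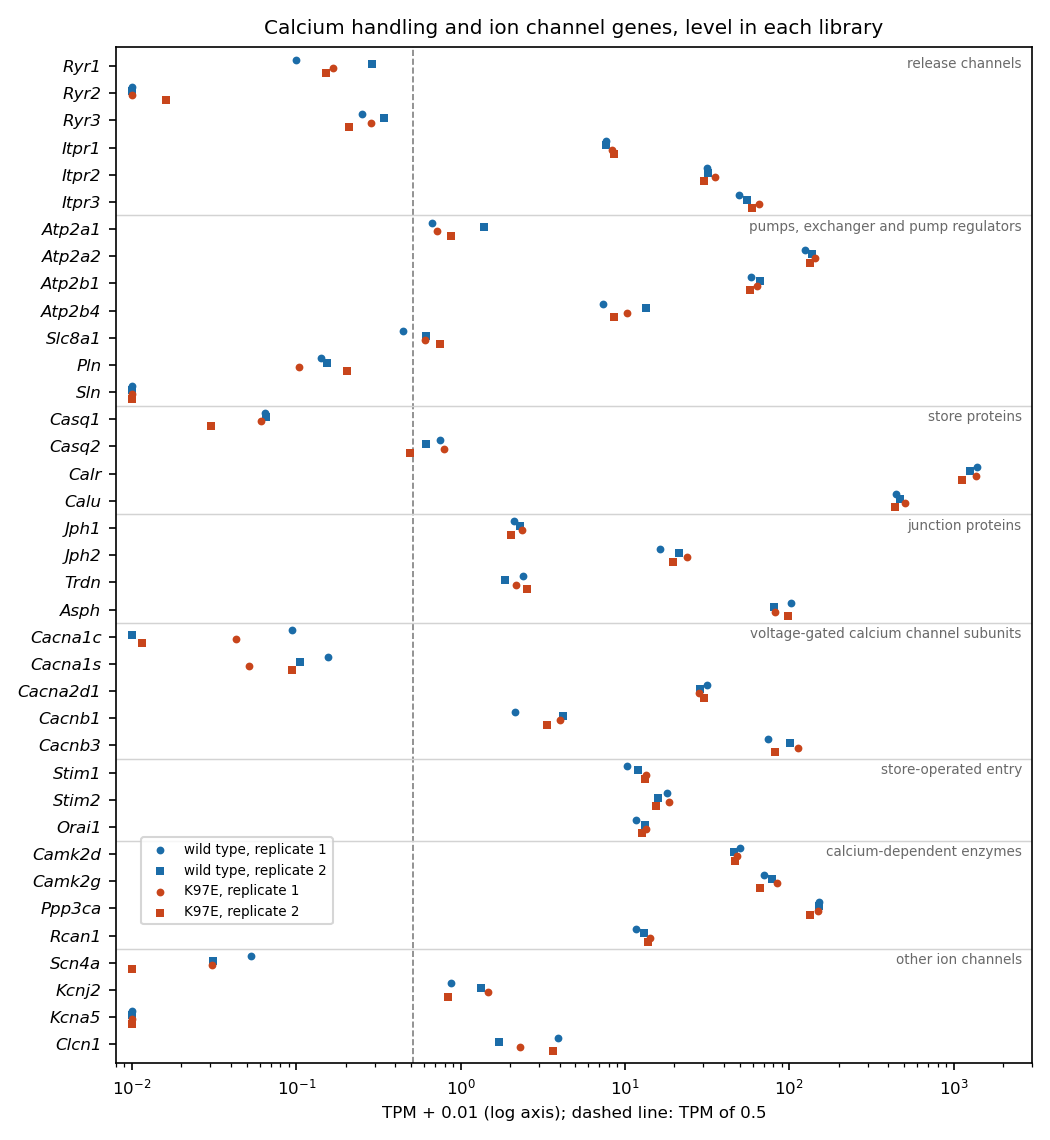
Level of each of the 37 genes in each of the 4 libraries, grouped by role, as TPM + 0.01 on a log axis; the dashed line marks the mean of 0.5 TPM used to call a gene measured. Points of the wild-type and K97E libraries lie close together beside the spread between genes, which runs from genes listed at 0 (Sln, Kcna5) to Calr at 1129 TPM or more.

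Levels were spread widely, within roles as well as between them. Of the 37 genes, 9 stood at a mean of 50 TPM or more, 10 between 5 and 50, 8 between 0.5 and 5, and 8 above 0 but under 0.5, and 2 were listed at 0. The upper band held the reticulum proteins Calr, Calu and Atp2a2, the enzymes Ppp3ca and Camk2g, the plasma membrane pump Atp2b1, the IP3 receptor Itpr3, the channel subunit Cacnb3 and Asph. The bands under 0.5 TPM held all 3 ryanodine receptors and both pore-forming calcium channel subunits of the set. They also held both SERCA regulators, the skeletal calsequestrin, the muscle sodium channel Scn4a and the potassium channel Kcna5. In bulk libraries, few cells with a gene and little RNA per cell cannot be told apart.

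Promoter sequence set these bands side by side with a feature the levels had not used. RefSeq promoter windows (250 bases before to 50 after the start, build GRCm38.p6) were matched by symbol for 28 of the 37 genes, in 35 windows. The 20 measured genes among them had a median of 29.5 CG dinucleotides, taking for each gene its window with the most, with a range of 3 to 54, and the 8 unmeasured genes a median of 6.5, with a range of 1 to 57. Taken the same way, the median over all 27025 genes of the table was 8. The groups overlapped: 6 of the 20 measured genes had 9 or fewer, as did 6 of the 8 unmeasured ones. Jph2, for example, had 8 at a mean of 20.3 TPM and Atp2b4 4 at 9.92 TPM, whereas Cacna1c had 57 at 0.0297 TPM. These counts describe the genes, were not tested, and say nothing about binding. The 9 genes without a window, in which no motif could be sought, were Atp2a2, Ppp3ca, Asph, Camk2g, Itpr1, Jph1, Trdn, Ryr3 and Sln. Of these, Atp2a2, Ppp3ca, Asph and Camk2g are in the upper band, so the comparison lacks much of it.

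**Figure D2:**
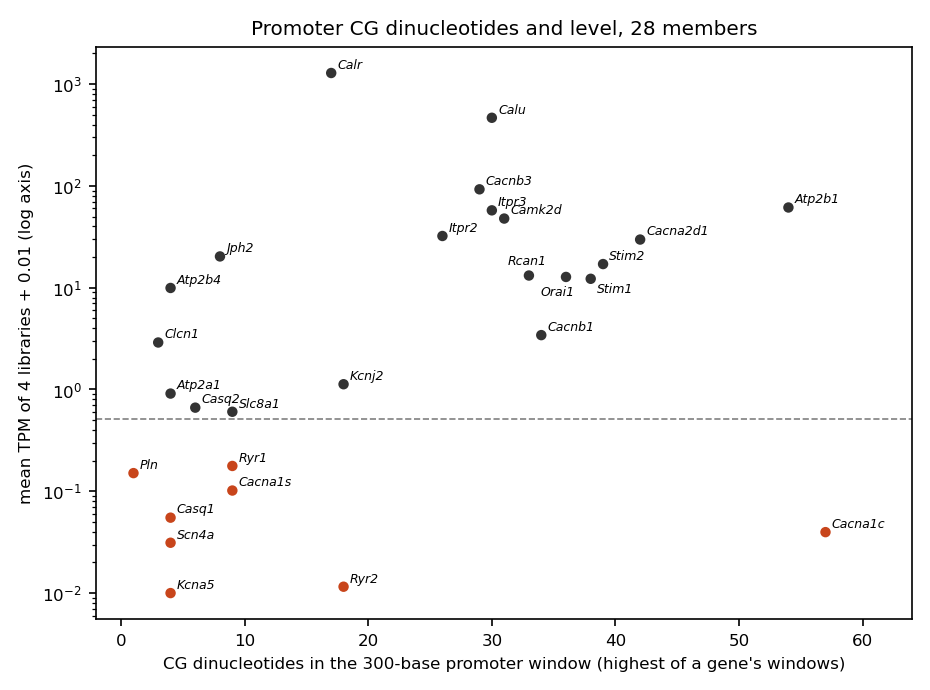
CG dinucleotides in the promoter window of each of 28 genes (horizontal axis, the highest count where a gene has several windows) against its mean TPM + 0.01 over 4 libraries (log axis). Black points are measured genes and red points are under the dashed line at 0.5 TPM; Cacna1c lies at the far right among the red points.

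Promoters are printed for Calr, the highest of the set, and for Casq1, a fibre gene near 0. Those of the 2 starts of Rcan1, whose first-exon coverage is given below, are printed too. Each runs 5′ to 3′ on the strand of the gene, positions are GRCm38.p6 and not those of the deposited files, and capitals mark the motif named after it.
Calr, chr8:84846882-84847181, minus strand: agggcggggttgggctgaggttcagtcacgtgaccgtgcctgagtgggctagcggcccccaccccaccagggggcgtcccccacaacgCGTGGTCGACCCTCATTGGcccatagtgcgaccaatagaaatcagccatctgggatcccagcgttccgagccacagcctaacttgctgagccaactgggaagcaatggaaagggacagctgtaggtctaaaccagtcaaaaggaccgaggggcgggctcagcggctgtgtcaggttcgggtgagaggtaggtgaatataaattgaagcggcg
Casq1, chr1:172219846-172220145, minus strand: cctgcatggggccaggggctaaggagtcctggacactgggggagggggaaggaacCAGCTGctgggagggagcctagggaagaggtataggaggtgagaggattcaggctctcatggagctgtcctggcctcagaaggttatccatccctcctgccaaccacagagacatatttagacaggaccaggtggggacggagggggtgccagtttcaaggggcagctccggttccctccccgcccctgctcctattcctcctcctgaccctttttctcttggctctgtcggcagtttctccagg
Rcan1 outer start, chr16:92466120-92466419, minus strand: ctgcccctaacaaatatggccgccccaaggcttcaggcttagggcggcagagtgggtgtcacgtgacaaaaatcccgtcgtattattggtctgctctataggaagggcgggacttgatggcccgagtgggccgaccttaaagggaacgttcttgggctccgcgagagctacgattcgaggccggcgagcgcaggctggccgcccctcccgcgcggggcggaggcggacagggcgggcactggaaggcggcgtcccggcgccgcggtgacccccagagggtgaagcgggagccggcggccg
Rcan1 inner start, chr16:92400029-92400328, minus strand: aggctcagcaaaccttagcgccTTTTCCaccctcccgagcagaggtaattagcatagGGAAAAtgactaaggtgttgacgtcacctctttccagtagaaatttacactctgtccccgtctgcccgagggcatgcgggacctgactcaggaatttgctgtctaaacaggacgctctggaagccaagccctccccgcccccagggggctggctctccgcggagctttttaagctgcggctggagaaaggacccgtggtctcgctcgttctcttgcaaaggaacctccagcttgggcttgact
In Calr the capitals mark the endoplasmic reticulum stress element, CCAAT and CCACG with 9 bases of any kind between them, on the opposite strand and 162 bases before the start. Searched on both strands, this motif was in 39 of 32851 windows (0.119%) and in no other window of the set. In Casq1 they mark CAGCTG, an E-box of the kind that myogenic factors bind, 195 bases before the start. CAGCTG was in 16.3% of all windows and in 11 of the 35 of the set, from 10 genes, among them the near-silent Casq1, Cacna1s and Pln and the abundant Calr. In Rcan1 they mark GGAAAA, the core that NFAT factors bind. GGAAAA was in 23.4% of all windows and in 3 of the 35 of the set (8.57%), from Atp2b4, Kcna5 and Rcan1. The inner start had 2 matches, 193 and 228 bases before it, and the outer start had none.

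The release channels split into 2 families by level. Ryr1 (ENSMUSG00000030592; GRCm39 chromosome 7, 28702769 to 28824604, minus strand), the release channel of skeletal muscle, stood at 0.0891 and 0.281 TPM with wild-type lamin A and at 0.157 and 0.142 TPM with K97E. The K97E libraries lay between the wild-type libraries, and the highest value was in wild-type replicate 2. Ryr3, a minor isoform of muscle, ranged from 0.200 to 0.334 TPM and shares 916 exonic bases with the measured gene Aven on the opposite strand, to which its reads could belong. Ryr2, the cardiac isoform, was listed at 0 in 3 libraries and at 0.0062 TPM in K97E replicate 2.

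All 3 IP3 receptors were measured, and each lay above every ryanodine receptor in every library. Itpr3 (ENSMUSG00000042644; GRCm39 chromosome 17, 27276278 to 27341197, plus strand) was the highest, at 49.2 and 55.6 TPM with wild-type lamin A and 65.7 and 59.4 TPM with K97E. Both K97E libraries were above both wild-type libraries, by a log2 fold change of 0.20 (SE 0.10, 95% interval -0.05 to 0.45, limma adjusted p = 0.965) that was 0.11 without wild-type replicate 1. It had the smallest unadjusted p of the 27 genes, 0.101, and 1394 tested genes had a smaller one. Nearly all of its level was 1 transcript, ENSMUST00000049308, of 2670 codons. Itpr2 ranged from 30.3 to 35.1 TPM and Itpr1 from 7.68 to 8.52 TPM; Itpr1 was also higher in both K97E libraries, by a log2 fold change of 0.07 (SE 0.11).

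Among the pumps, the housekeeping isoforms were abundant and the fibre isoform was near the limit of 0.5 TPM. Atp2a2 (ENSMUSG00000029467; GRCm39 chromosome 5, 122591576 to 122640288, minus strand), which encodes SERCA2, stood at 124 and 137 TPM with wild-type lamin A and at 142 and 135 TPM with K97E. The groups overlapped, and the log2 fold change was 0.03 (SE 0.09, 95% interval -0.20 to 0.26, limma adjusted p = 0.987). Atp2a1 (ENSMUSG00000030730; GRCm39 chromosome 7, 126045030 to 126062280, minus strand), the SERCA1 pump of fast fibres, stood at 0.664 and 1.37 TPM with wild-type lamin A and at 0.710 and 0.859 TPM with K97E. Wild-type replicate 2 was highest, as it was for Ryr1 and for the sum of the fibre markers, which is mostly Actn3. The measured fibre markers Mymk, Actn3 and Mylpf were each highest there. Of those under a mean of 0.5 TPM, Myog, Mymx and Myh3 were also highest in wild-type replicate 2. Acta1 was highest in wild-type replicate 1, Tnnt3 in K97E replicate 2, and Ckm, Tnni2 and Tnnc2 in K97E replicate 1. The rest were listed at 0. Whether differentiated cells had a part in the value was not tested. The log2 fold change of Atp2a1 was -0.24 (SE 0.29, 95% interval -0.97 to 0.49, limma adjusted p = 0.965) and 0.11 without wild-type replicate 2. All of its level was assigned to ENSMUST00000032974. Atp2a1 shares 763 exonic bases with Rabep2 on the opposite strand, and the counting used no strand option.

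Transcripts of Atp2a2 showed which SERCA2 form the estimates favoured. ENSMUST00000031423, with 1044 codons as in the widely expressed SERCA2b, carried 66.4% of the gene level on average, at 94.3 and 87.2 TPM with wild-type lamin A and 81.7 and 94.3 TPM with K97E. ENSMUST00000177974, with 998 codons as in the muscle form SERCA2a, carried 5.29%, at 4.18 and 9.99 TPM with wild-type lamin A and 8.20 and 6.08 TPM with K97E. A transcript annotated as subject to nonsense-mediated decay, ENSMUST00000179939, was assigned the next largest share, 28.1%. Its annotated reading frame also has 1044 codons. None of these passed the test by limma (adjusted p of 0.957 to 0.992).

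The regulators of SERCA were all but absent. Sln (ENSMUSG00000042045; GRCm39 chromosome 9, 53757448 to 53761844, plus strand), which encodes sarcolipin, was listed at 0 TPM in all 4 libraries. Pln (ENSMUSG00000038583; GRCm39 chromosome 10, 53213763 to 53222083, plus strand), which encodes phospholamban, stood at 0.132 and 0.144 TPM with wild-type lamin A and at 0.0946 and 0.192 TPM with K97E. The K97E libraries were the lowest and the highest of the 4, and the values rest on 12 to 17 estimated reads each. Pln also shares exonic bases with the measured gene Cep85l on the opposite strand.

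Calcium leaves the cell through plasma membrane pumps, of which Atp2b1 is the ubiquitous isoform. Atp2b1 (ENSMUSG00000019943; GRCm39 chromosome 10, 98750268 to 98862005, plus strand) stood at 58.3 and 66.1 TPM with wild-type lamin A and at 63.2 and 57.6 TPM with K97E, in overlapping groups (log2 fold change -0.10, SE 0.10, limma adjusted p = 0.965; -0.0079 without wild-type replicate 2). A short transcript of 3 exons, ENSMUST00000219090, with 1.59% of the Atp2b1 level, stood at 1.15 and 1.31 TPM with wild-type lamin A and at 0.828 and 0.605 TPM with K97E (log2 fold change -0.54, SE 0.23, limma adjusted p = 0.957). Atp2b4 ranged from 7.34 to 13.5 TPM, with its lowest and highest values in the wild-type libraries. The exchanger Slc8a1, the main exit route of heart muscle, ranged from 0.435 to 0.737 TPM.

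Store proteins held both the highest levels of the set and some of the lowest. Calr (ENSMUSG00000003814; GRCm39 chromosome 8, 85568479 to 85573563, minus strand), the luminal calcium buffer and chaperone calreticulin, was the highest of the 37 genes. It stood at 1386 and 1258 TPM with wild-type lamin A and at 1364 and 1129 TPM with K97E. The groups overlapped, with replicate 2 below replicate 1 in each, and the log2 fold change was -0.15 (SE 0.14, 95% interval -0.49 to 0.20, limma adjusted p = 0.965), or -0.05 without K97E replicate 2 and -0.25 without K97E replicate 1. A retained-intron transcript, ENSMUST00000125998, with 0.106% of the Calr level, stood at 0.740 and 1.20 TPM with wild-type lamin A and at 2.17 and 1.32 TPM with K97E (log2 fold change 0.57, SE 0.32, limma adjusted p = 0.957). Calu (ENSMUSG00000029767; GRCm39 chromosome 6, 29348068 to 29377109, plus strand), the luminal calcium-binding protein calumenin, followed at 447 and 474 TPM with wild-type lamin A and 505 and 439 TPM with K97E. The K97E libraries enclosed the wild-type libraries, and the log2 fold change of -0.02 (SE 0.11, limma adjusted p = 0.990) was 0.03 with TPM as deposited.

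Calsequestrin, the store protein of the sarcoplasmic reticulum, was low in each form. Casq1, the skeletal form, ranged from 0.0202 to 0.0553 TPM, on at most 5 estimated reads per library. Casq2, the cardiac and slow-fibre form, passed the limit with 0.483 to 0.785 TPM and was lowest in K97E replicate 2. It passed only as a sum of transcripts. The coding ENSMUST00000029454 had a mean of 0.422 TPM, and a retained-intron transcript, ENSMUST00000159833, had 0.231 TPM. The mean level of Calr was 1284 TPM, against 0.653 TPM for Casq2 and 0.0451 TPM for Casq1.

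Junction proteins tie the reticulum to the plasma membrane. Jph2 (ENSMUSG00000017817; GRCm39 chromosome 2, 163178162 to 163239913, minus strand), the junctophilin shared by heart and skeletal muscle, stood at 16.3 and 21.4 TPM with wild-type lamin A and at 23.8 and 19.7 TPM with K97E. Wild-type replicate 1 was lowest and the other libraries overlapped. The log2 fold change was 0.15 (SE 0.16, 95% interval -0.24 to 0.55, limma adjusted p = 0.965), and it was -0.04 without wild-type replicate 1. Jph1, the skeletal junctophilin, ranged from 2.03 to 2.37 TPM, and Trdn, the junctional anchor triadin, from 1.85 to 2.54 TPM.

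Asph carries several proteins in 1 locus: the enzyme aspartate beta-hydroxylase in its long forms, and junctin and junctate in short forms that lack the enzyme. The gene stood at 102 and 80.7 TPM with wild-type lamin A and 81.5 and 98.0 TPM with K97E in overlapping groups (log2 fold change -0.08, SE 0.16, limma adjusted p = 0.974). Its transcripts held the only unadjusted p-values under 0.05 among the 87 tested transcripts of the set, 2 of 87 beside 4.56% of the 38950 transcripts tested. Limma called 0 of these 38950 (0%) at an adjusted p under 0.05, with 1778 at an unadjusted p under 0.05. ENSMUST00000108334, a short form of 272 codons and 14 exons, was assigned 28.1 and 30.2 TPM with wild-type lamin A and 3.76 and 3.71 TPM with K97E. The groups lay far apart, with a log2 fold change of -2.84 (SE 0.14, unadjusted p = 5.7e-05), but limma gave an adjusted p of 0.137. ENSMUST00000108337, a short form of 294 codons and 13 exons, was assigned 14.8 and 12.9 TPM with wild-type lamin A and 30.4 and 26.0 TPM with K97E (log2 fold change 0.96, SE 0.15, limma adjusted p = 0.515).

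The transcripts share 12 exons, and the exon coverage gave a second readout. The deposited exon coverage was itself assigned to each transcript, so this readout is not independent of how reads were split between them. They differ in the first exon, since ENSMUST00000108334 starts at an inner exon and ENSMUST00000108337 at an outer one, and in a cassette exon of 48 bases that only the former includes. Coverage was summed over all Asph transcripts and scaled as FPKM (fragments per kilobase per 1000000). The inner first exon (GRCm39 chromosome 4, 9643535 to 9643717) had an exon FPKM of 1.16 and 1.63 with wild-type lamin A and 1.26 and 1.61 with K97E. These groups overlapped, although ENSMUST00000108334, which starts there, was assigned such different levels. The inner first exon is in 6 transcripts and the outer one in 8, so each value sums several transcripts. Exon FPKM and transcript TPM are also different units. The outer first exon (9668781 to 9669162) had 7.64 and 6.19 with wild-type lamin A and 8.55 and 9.74 with K97E. It was higher in both K97E libraries, and it lay above the inner first exon in each library. The cassette exon (9598733 to 9598780) had 31.3 and 19.7 with wild-type lamin A and 23.6 and 27.8 with K97E, with the K97E libraries between the wild-type ones.

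The other exon classes of Asph differed between libraries of 1 group as much as between groups. The 11 exons shared by long and short forms averaged an exon FPKM of 64.6 and 43.4 with wild-type lamin A and 46.1 and 58.3 with K97E. The last exon of the short forms (9575267 to 9576973) had 22.6 and 17.7 with wild-type lamin A and 18.8 and 22.5 with K97E. The last exon of the long forms (9449079 to 9453445) had 11.8 and 9.59 with wild-type lamin A and 9.70 and 12.1 with K97E. The average of each class was higher in wild-type replicate 1 and K97E replicate 2 than in the other libraries. Within the classes there were exceptions. The exons that start at 9639198, 9474898 and 9475390 were each higher in both K97E libraries than in both wild-type libraries. The exon that starts at 9542225 had 17.84 in wild-type replicate 1 and 17.87 in wild-type replicate 2. The Asph locus also shares 2302 exonic bases with Clvs1 on the opposite strand.

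**Figure D3:**
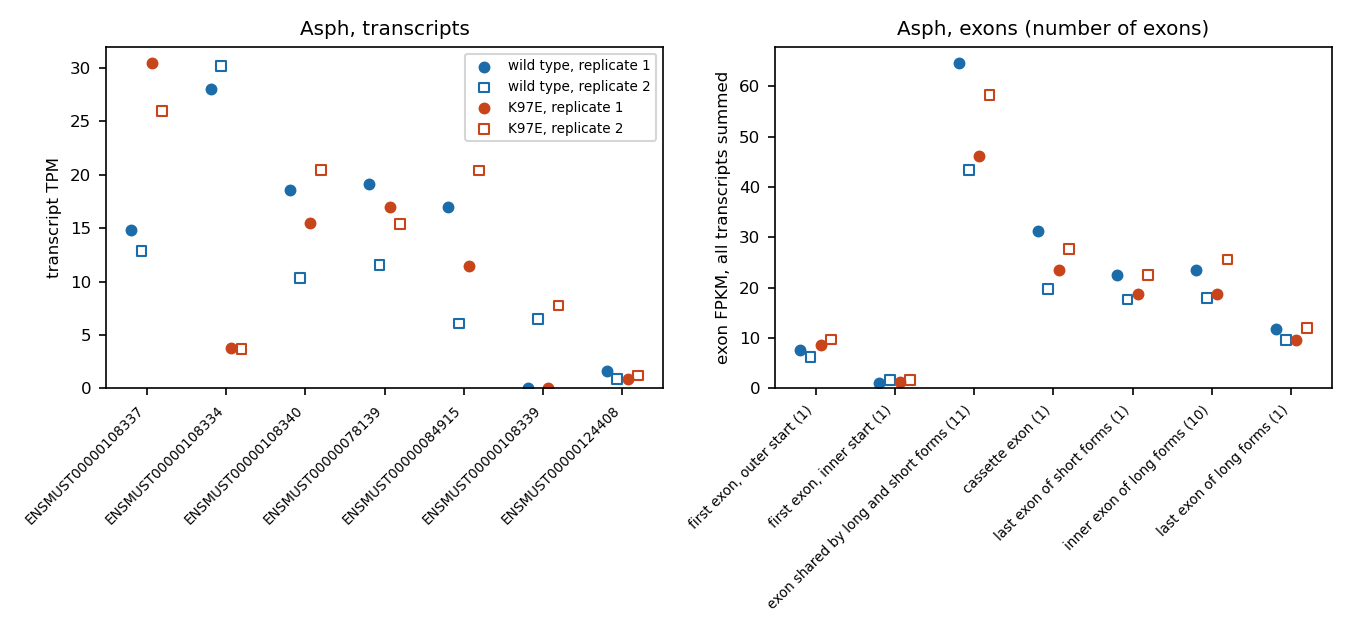
Asph by transcript (left, TPM of the 7 transcripts with the highest mean) and by exon class (right, exon FPKM summed over all Asph transcripts, with the number of exons averaged in parentheses), 1 point per library. ENSMUST00000108334 stands near 29 TPM with wild-type lamin A and near 4 TPM with K97E. The first exon at the inner start, where it begins, is at 1.16 to 1.63 in all 4 libraries. That exon is in 6 transcripts, and the 2 panels have different units.

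Of the voltage-gated calcium channel subunits in the set, the auxiliary ones were measured and both pores were under 0.5 TPM. Cacna1s, the voltage sensor of skeletal muscle, ranged from 0.0415 to 0.147 TPM on 14 to 39 estimated reads, and Cacna1c, the L-type pore of heart muscle, from 0 to 0.0841 TPM. Outside the set the pore Cacna1a was just measured, with a mean of 0.546 TPM. Cacnb3 (ENSMUSG00000003352; GRCm39 chromosome 15, 98528721 to 98542410, plus strand), a cytoplasmic beta subunit, was among the 5 highest genes, at 73.9 and 102 TPM with wild-type lamin A and 113 and 81.7 TPM with K97E. The groups overlapped, and the log2 fold change of 0.09 (SE 0.20, 95% interval -0.41 to 0.59, limma adjusted p = 0.979) was negative without wild-type replicate 1 or without K97E replicate 1. Cacna2d1, the alpha-2-delta subunit that brings channels to the surface, ranged from 28.3 to 31.4 TPM. Cacnb1, the beta subunit of the skeletal muscle channel, ranged from 2.14 to 4.18 TPM, with both extremes in the wild-type libraries.

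Store-operated entry refills the reticulum when STIM proteins sense its depletion and open ORAI channels. Stim1 (ENSMUSG00000030987; GRCm39 chromosome 7, 101917013 to 102086526, plus strand) stood at 10.3 and 12.01 TPM with wild-type lamin A and at 13.3 and 13.2 TPM with K97E. Both K97E libraries were above both wild-type libraries, by a log2 fold change of 0.18 (SE 0.12, 95% interval -0.11 to 0.48, limma adjusted p = 0.965). Leaving out wild-type replicate 1 gave 0.08, and leaving out wild-type replicate 2 gave 0.29. Orai1 (ENSMUSG00000049686; GRCm39 chromosome 5, 123153137 to 123168519, plus strand), the channel pore, stood at 11.6 and 13.2 TPM with wild-type lamin A and at 13.5 and 12.7 TPM with K97E. Its groups overlapped (log2 fold change 0.02, SE 0.11, 95% interval -0.27 to 0.30, limma adjusted p = 0.993). Stim2, the sensor of smaller store changes, ranged from 15.5 to 18.6 TPM and was in each library above Stim1. Its leading transcript ENSMUST00000117661 stood at 10.1 and 9.52 TPM with wild-type lamin A and 7.81 and 8.52 TPM with K97E, a log2 fold change of -0.29 (SE 0.16, limma adjusted p = 0.957).

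Enzymes that read the calcium signal were well expressed. Ppp3ca (ENSMUSG00000028161; GRCm39 chromosome 3, 136375885 to 136643488, plus strand), the catalytic subunit of calcineurin, stood at 151 and 153 TPM with wild-type lamin A and at 150 and 134 TPM with K97E. Both K97E libraries were below both wild-type libraries, and the log2 fold change was -0.16 (SE 0.09, 95% interval -0.38 to 0.06, limma adjusted p = 0.965), or -0.10 with TPM as deposited. Camk2d (ENSMUSG00000053819; GRCm39 chromosome 3, 126389951 to 126639975, plus strand), a calcium and calmodulin dependent kinase, stood at 49.8 and 46.4 TPM with wild-type lamin A and at 48.2 and 46.5 TPM with K97E. Its groups overlapped in deposited TPM and not after scaling (log2 fold change -0.08, SE 0.09, limma adjusted p = 0.965; -0.03 without wild-type replicate 1). Camk2g, of the same kinase family, ranged from 66.5 to 84.5 TPM, with both extremes in the K97E libraries. Itpr3 and Ppp3ca, 2 of the 27 genes, had a difference between group means larger than the difference between replicates in each group, beside 19.8% of all tested genes.

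Rcan1 encodes an inhibitor of calcineurin and has 2 starts, of which the inner one is the known target of calcineurin and NFAT signalling. Rcan1 (ENSMUSG00000022951; GRCm39 chromosome 16, 92188841 to 92267755, minus strand) stood at 11.6 and 13.0 TPM with wild-type lamin A and at 14.3 and 13.7 TPM with K97E. Both K97E libraries were above both wild-type libraries, by a log2 fold change of 0.12 (SE 0.11, 95% interval -0.15 to 0.40, limma adjusted p = 0.965). It came to 0.04 when wild-type replicate 1 was left out and to 0.20 when wild-type replicate 2 was. ENSMUST00000232239, from the outer start, carried 86.6% of the level, at 10.7 and 10.1 TPM with wild-type lamin A and 12.6 and 12.2 TPM with K97E (log2 fold change 0.20, SE 0.14, limma adjusted p = 0.957). Coverage of the first exons gave a value for each start. The outer first exon (92262721 to 92263031) had an exon FPKM of 2.34 and 2.60 with wild-type lamin A and 2.51 and 2.97 with K97E. The inner first exon (92196784 to 92196965), downstream of the promoter with 2 GGAAAA matches, had 0 and 0.176 with wild-type lamin A and 0.0956 and 0.0047 with K97E. The transcript from the inner start, ENSMUST00000023672, was assigned 0 and 1.33 TPM with wild-type lamin A and 0.716 and 0.224 TPM with K97E, a mean of 0.567 TPM and 4.31% of the level. In both readouts the inner start was below the outer one in every library, and its 2 highest values came from different groups. The readouts are not independent, since the deposited exon coverage was itself assigned to each transcript. Coverage was summed over all Rcan1 transcripts that overlap a first exon, so a value need not come from 1 transcript. ENSMUST00000060005, of 251 codons and a mean of 1.13 TPM, starts 23 bases from the start of the outer promoter window.

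Of the other ion channels, Scn4a, the sodium channel of the skeletal muscle action potential, ranged from 0 to 0.0427 TPM and Kcna5, a voltage-gated potassium channel, was listed at 0 in all 4 libraries. Kcnj2, the inward rectifier that sets the resting potential, ranged from 0.832 to 1.46 TPM. Clcn1, the chloride channel of skeletal muscle, ranged from 1.69 to 3.93 TPM and shares 445 exonic bases with Fam131b on the opposite strand. Its 2 extremes were both wild-type libraries, and its interval was the widest of the 27 genes. Of its mean level of 2.88 TPM, the coding transcript ENSMUST00000031894 held 1.39 TPM. ENSMUST00000114684, without an annotated reading frame, held 1.14 TPM, and the retained-intron ENSMUST00000169902 held 0.309 TPM.

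The intervals give the differences that limma left possible from the scatter of these libraries, which may be technical. Since the share of transfected cells is not given, they set no bound on a difference within those cells. For 17 of the 27 genes the 95% interval of the log2 fold change lay within 0.5 on each side of 0. These included Atp2a2, Itpr3, Stim1, Stim2, Orai1, Ppp3ca, Calr and Calu. For 26 of 27 it lay within 1, and the exception was Clcn1, from -0.89 to 1.04. The 10 genes with wider intervals than 0.5 were Atp2a1, Casq2, Kcnj2 and Slc8a1, all near the limit of 0.5 TPM, and Atp2b4, Jph2, Trdn, Cacnb1, Cacnb3 and Clcn1.

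**Figure D4:**
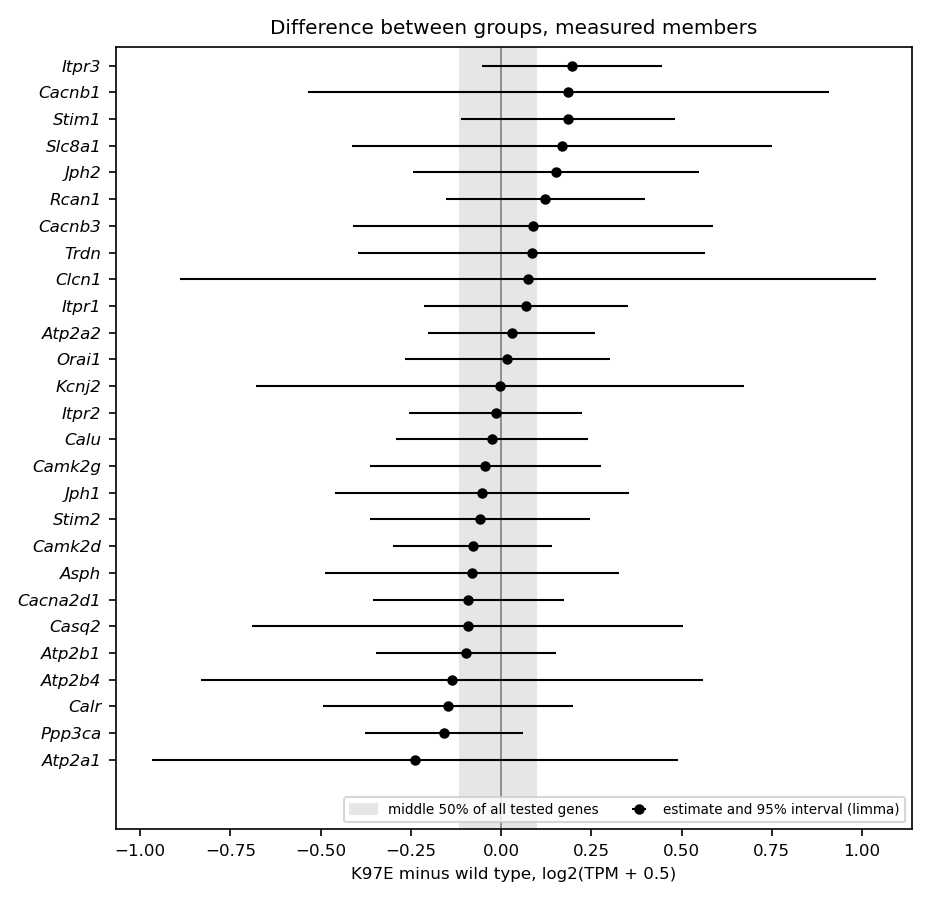
Log2 fold change of each of the 27 measured genes (K97E minus wild type, log2(TPM + 0.5)) with its 95% interval from limma; the grey band holds the middle 50% of all 16304 tested genes. Every interval includes 0, and estimates run from -0.24 for Atp2a1 to 0.20 for Itpr3.

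The libraries differed in a pattern that crossed the groups. Wild-type replicate 1 held the lowest value of 11 of the 27 genes and K97E replicate 2 that of 10, against 3 each for wild-type replicate 2 and K97E replicate 1. The highest values were spread more evenly, with 7 and 8 in wild-type replicates 1 and 2 and 7 and 5 in K97E replicates 1 and 2. Neither count was made over all tested genes, so neither can be called particular to the set. The median deviation from the mean of each gene was -0.04 in wild-type replicate 1 and -0.03 in K97E replicate 2, and 0.04 in wild-type replicate 2 and 0.03 in K97E replicate 1 (log2). Over all tested genes the median deviations ran from -0.0035 to 0.0025. Deviations of same-numbered libraries from their group means had opposite signs for 20 of the 27 genes (74.1%), beside 60.8% of all tested genes. The cause was not tested. Cacnb3, Cacnb1, Jph2 and Kcnj2 were each lower in wild-type replicate 1 and K97E replicate 2 than in the other libraries of their groups, and Clcn1, Asph and Trdn were each higher. These genes were chosen after their values were seen.

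**Figure D5:**
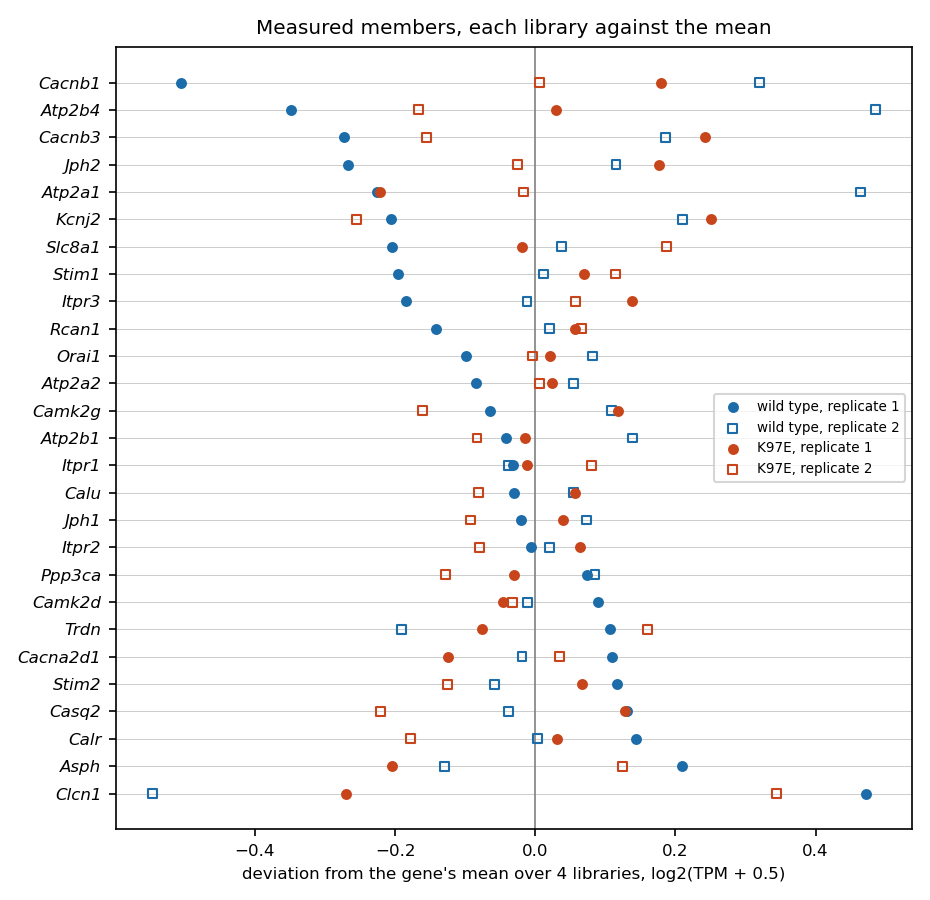
Deviation of each library from the mean of 4 libraries for the 27 measured genes, in log2(TPM + 0.5) after scaling, ordered by wild-type replicate 1; filled circles are replicates 1 and open squares replicates 2. At the top (Cacnb1 to Jph2) wild-type replicate 1 lies on the left, with wild-type replicate 2 and K97E replicate 1 on the right; Clcn1 at the bottom shows the opposite order.

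A wider list of 106 other calcium genes gave the background of the pathway, and 68 of them were measured. Limma called 0 of 68 at an adjusted p under 0.05, and 1 of 68 at an unadjusted p under 0.05. The median log2 fold change was 0.02, with 41 positive and 27 negative, and the groups did not overlap for 21 in scaled TPM, 15 higher and 6 lower with K97E, beside the 16.3% and 16.8% of all tested genes. In TPM as deposited they did not overlap for 19, 18 higher and 1 lower, beside 25.9% and 9.72%. Chrna1, the alpha subunit of the muscle acetylcholine receptor, was the 1 gene, at 49.8 and 51.8 TPM with wild-type lamin A and 40.2 and 41.3 TPM with K97E (limma unadjusted p = 0.00737, adjusted p = 0.965). Kcnn1, a small-conductance calcium-activated potassium channel, stood at 0.657 and 1.10 TPM with wild-type lamin A and at 2.05 and 1.33 TPM with K97E (log2 fold change 0.63, SE 0.26, limma adjusted p = 0.965). Both K97E libraries were above both wild-type libraries for Kcnn1, and the same held for the next 4 by p. These genes were chosen for a small p in this same comparison, so that separation follows largely from the choice. The log2 fold change of Kcnn1 was 0.20 with voom weights, 0.39 when wild-type replicate 1 was left out and 0.41 when K97E replicate 1 was.

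Of those 4, Pkd1, a large membrane protein related to TRP channels, stood at 20.4 and 24.98 TPM with wild-type lamin A and at 30.4 and 27.4 TPM with K97E (log2 fold change 0.29, SE 0.13). Camkk1, a kinase that activates other calmodulin kinases, stood at 8.33 and 10.4 TPM with wild-type lamin A and at 13.6 and 10.7 TPM with K97E (0.30, SE 0.16). Ahnak, a giant scaffold protein that binds calcium channel beta subunits, had log2 fold change 0.23 (SE 0.12), and Kcnn4, the intermediate-conductance calcium-activated potassium channel, 0.16 (SE 0.09). Limma gave each an adjusted p of 0.965, so none passed over all genes tested. Without wild-type replicate 1 the log2 fold changes of Pkd1, Camkk1 and Ahnak were 0.15, 0.15 and 0.09; Camkk1 was also 0.17 without K97E replicate 1. The 7 luminal chaperones of the list summed to 2790, 2589, 2765 and 2536 TPM and the 9 mitochondrial uptake genes to 452, 491, 520 and 481 TPM, in wild-type replicates 1 and 2 and K97E replicates 1 and 2. All 16 of these genes were measured, with log2 fold changes from -0.17 to 0.10.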

How the data were processed

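RNA of 4 C2C12 libraries, 2 per lamin A construct, was analysed from deposited per-library transcript files. Per the file headers, the authors ran StringTie 2.1.7 on annotated transcripts only, with Ensembl release 104 and no strand option. The submitters' processing notes name GRCm39, HISAT2, SAMtools, FastQC and DESeq2, the last with a role not given in the sources used here. The deposited values are TPM, FPKM and coverage for 142434 transcripts. They are not counts, and estimated reads (coverage times length over the read length of 100) give no counting interval.

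Gene TPM was the sum over transcripts, divided by median-of-ratios factors. After adding a pseudocount of 0.5, the 16304 genes with a mean TPM of 0.5 or more were compared in log2 with limma 3.58.1 in R 4.3.3 (eBayes with trend, 5.54 total degrees of freedom, 3.78 for transcripts), two-sided, with Benjamini-Hochberg adjustment at 0.05. With 2 libraries a group an exact permutation test cannot go below 0.333. The test was run on data simulated from its own fitted scatter, with changes larger than those estimated for the members. That run cannot show how the test behaves with the scatter of these libraries. Printed TPM are as deposited. Exon FPKM is exon coverage over the ratio of coverage to FPKM of the library. Exon coverage was compared by value, without a test. Codons and transcript types were taken from GENCODE (GRCm38) by transcript ID where lengths were equal, and RefSeq promoters were matched by symbol. Python 3.11.15, pandas 2.3.3 and matplotlib 3.10.9 were used for reading and drawing.

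The members, the other calcium genes, the marker lists and the roles were chosen with earlier results of these data known. Values are given in full for the 8 measured members with the smallest p, the 5 most abundant, and Pln, Sln, Atp2a1, Atp2a2, Ryr1, Stim1 and Orai1, for the 6 member transcripts with the smallest p, the leading transcripts of Atp2a1, Atp2a2, Asph and Rcan1, and the 6 other calcium genes with the smallest p. Alternatives were other pseudocounts, filters, scalings and model settings, FPKM in place of TPM, voom weights on estimated reads, a replicate block, and each library left out.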

Additional observations from a re-analysis of the deposited data

How the results depend on the processing

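Of the 27 measured members 0 passed in any of the 15 alternatives, and 0 transcripts of any gene passed. The count of genes called, 1 in the design as planned, was 0 with no filter on low values, 2 with TPM as deposited, 2 without the trend, 4 with voom weights, and 0 to 14 with a library left out, the 14 without wild-type replicate 1; the causes were not tested. The median log2 fold change of the members, -0.015, was 0.038 with TPM as deposited, 0.040 with voom weights and -0.072 to 0.043 with a library left out. With the replicate number as a block the fit called 0 genes and 0 members. The numbers are not shown to pair the samples, since same-numbered deviations had a correlation of -0.137 over all tested genes. A block that crossed the numbers, chosen after seeing the data, called 30 genes and 0 members. At an unadjusted p under 0.05 there was 1 member without wild-type replicate 1 (Atp2b4, beside 4.13% of genes) and 2 without wild-type replicate 2 (Cacnb1 and Itpr3, beside 14.5%). Calu, at -0.02, was 0.034 with TPM as deposited, 0.047 with quantile normalization, 0.0043 with FPKM and 0.039 with voom weights. With a library left out, the sign changed within the ranges of Calu (-0.093 to 0.042), Jph2 (-0.042 to 0.342), Atp2a2 (-0.043 to 0.099), Cacnb3 (-0.145 to 0.316), Orai1 (-0.075 to 0.107) and Atp2a1 (-0.587 to 0.106). It also changed for the Atp2a1 transcript ENSMUST00000032974 (-0.581 to 0.121) and the Atp2a2 transcript ENSMUST00000031423 (-0.221 to 0.046). Depth limits the genes near 0: Pln rests on at most 17 estimated reads per library and Casq1 on at most 5.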
